A study of Arabidopsis thaliana with 3 samples.

Results

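The MADS-box, KNOX and organ identity genes examined here are 48 Arabidopsis thaliana loci out of 27444 nuclear protein-coding genes. They were chosen by locus identifier as known developmental targets of Polycomb repression, and the rule uses no measured value. The set holds 37 genes of the MADS-box family and 11 genes of other families, namely the class I KNOX genes, WUS, the CUC genes and the embryo regulators LEC1, LEC2 and FUS3. All 48 loci were found in the gene annotation, so no locus was left out.

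To locate AIPP3, a protein with a BAH domain that the study examined as a reader of the histone mark H3K27me3, the DNA that co-precipitates with it was sequenced after immunoprecipitation with a Myc antibody (ChIP-seq). The 3 libraries came from 13-day-old seedlings of the Col-0 ecotype grown at 23 °C with 16 h of light and 8 h of dark. Replicates 1 and 2 of AIPP3-4Myc came from plants carrying AIPP3 fused to Myc tags, and the single Col-0 library, made from untagged plants, gave the background of the antibody. Per the study's methods, tagged genomic constructs were driven by the native promoter and placed in the matching mutant (aipp3-1), so the tag need not be the sole difference from Col-0. Whole seedlings hold many cell types, and a peak does not show in which of them the protein was present. The short descriptions of the 2 tagged libraries carry codes that are not explained, so it is unknown whether these libraries share a line or a day.

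Polycomb complexes keep developmental regulators silent outside the cells that need them, and they mark the chromatin of these genes with H3K27me3, which reader proteins can recognise. MADS-box genes encode transcription factors that set flowering time and the identity of sepals, petals, stamens, carpels and ovules. Class I KNOX genes and WUS maintain the shoot apical meristem, CUC genes set organ boundaries, and LEC1, LEC2 and FUS3 direct embryo and seed development. In seedlings many of these genes are classical examples of loci held silent by Polycomb.

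A gene was called bound in a library when a deposited peak overlapped by at least 1 bp its target region, that is the gene from its transcription start site (TSS) to its transcription end plus the 1 kb before the start. On the nuclear chromosomes the lists held 16 peaks in Col-0, 926 in AIPP3-4Myc replicate 1 and 430 in replicate 2. The sequencing depth behind these lists is unknown. Each peak carries a score, which is the negative log10 of its p-value times 10 and grows with depth. Scores were therefore read mainly by their rank within a list. A score minimum of 100 and windows of score were also used, and these are exposed to the unknown depth. A gene without a peak did not reach the authors' threshold in that library, which does not show that AIPP3 was absent.

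Of the 48 genes, 5 were bound in at least 1 AIPP3-4Myc replicate, and the remaining 43 were bound in neither. Replicate 1 bound 4 genes, the floral organ gene PI, the root gene ANR1, the boundary gene CUC2 and the embryo gene FUS3. Replicate 2 bound 2 genes, PI and the meristem gene WUS. PI was thus the only member bound in both replicates. No member was bound in Col-0. The AIPP3-4Myc libraries bound 3.0 ± 1.41 members (SD, n = 2). The labels of 2 libraries against 1 can be exchanged in only 3 ways, so an exact permutation test cannot reach a threshold of 0.05. No test was made, and the difference from Col-0 has no replicate check.

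These counts were set against all 27444 protein-coding genes under the same rule. In replicate 1, 8.33% of the members were bound, against 5.11% of all genes. In replicate 2 the shares were 4.17% of the members and 2.28% of all genes. For binding in both replicates, the shares were 2.08% of the members and 1.67% of all genes, or 459 genes. Binding in either replicate covered 10.4% of the members and 5.72% of all genes. In Col-0 no member and 0.0547% of all genes were bound. With 48 genes each member is 2.08% of the set, so each replicate exceeded the share of all genes by less than 2 members, and this is not read as a property of the set.

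The 300 bases before the TSS of the 5 bound genes are given here because it shows how far each peak reached: the peaks at WUS, CUC2 and FUS3 end inside it, those at ANR1 and, in replicate 1, at PI cover it, and the replicate 2 peak at PI does not reach it. They were read from the RefSeq TAIR10.1 genome, and each is written 5′ to 3′ on the strand of its gene. Capitals mark matches on either strand to GAGAGA or AAACCCTA, motifs known from Polycomb response elements of Arabidopsis, with overlapping matches merged. CACGTG and the CArG box, which MADS proteins bind, were also searched on both strands and had no match in these stretches.
PI, chr5:6828604-6828903, plus strand: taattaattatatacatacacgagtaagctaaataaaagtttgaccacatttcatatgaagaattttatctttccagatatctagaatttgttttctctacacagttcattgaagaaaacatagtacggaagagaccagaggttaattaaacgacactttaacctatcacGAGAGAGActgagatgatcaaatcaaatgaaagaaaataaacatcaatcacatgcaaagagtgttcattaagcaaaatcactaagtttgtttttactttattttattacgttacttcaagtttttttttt
ANR1, chr2:6018258-6018557, plus strand: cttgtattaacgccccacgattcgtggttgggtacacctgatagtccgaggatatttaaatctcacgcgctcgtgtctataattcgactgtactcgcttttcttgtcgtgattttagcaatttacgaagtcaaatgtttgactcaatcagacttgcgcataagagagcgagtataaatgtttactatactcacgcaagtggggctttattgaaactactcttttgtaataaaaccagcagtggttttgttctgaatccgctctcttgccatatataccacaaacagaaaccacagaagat
WUS, chr2:7810812-7811111, minus strand: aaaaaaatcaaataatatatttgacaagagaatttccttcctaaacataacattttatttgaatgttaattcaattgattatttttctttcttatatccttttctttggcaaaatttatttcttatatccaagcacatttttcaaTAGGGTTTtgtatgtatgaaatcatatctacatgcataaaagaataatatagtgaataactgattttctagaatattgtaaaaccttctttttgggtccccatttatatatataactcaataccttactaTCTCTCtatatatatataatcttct
CUC2, chr5:21903855-21904154, minus strand: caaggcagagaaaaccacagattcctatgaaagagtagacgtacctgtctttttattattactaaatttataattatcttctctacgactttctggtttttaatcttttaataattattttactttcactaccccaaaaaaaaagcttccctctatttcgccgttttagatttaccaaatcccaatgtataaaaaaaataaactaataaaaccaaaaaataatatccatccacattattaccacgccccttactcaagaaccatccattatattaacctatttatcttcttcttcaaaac
FUS3, chr3:9856213-9856512, minus strand: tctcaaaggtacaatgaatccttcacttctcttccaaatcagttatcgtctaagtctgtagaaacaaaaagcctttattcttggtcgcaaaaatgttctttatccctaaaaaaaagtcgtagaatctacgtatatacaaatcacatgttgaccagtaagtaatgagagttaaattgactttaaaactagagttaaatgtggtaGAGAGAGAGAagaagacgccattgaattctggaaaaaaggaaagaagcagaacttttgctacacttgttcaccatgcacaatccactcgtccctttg

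The stretch before PI held 2 overlapping GAGAGA matches and the stretch before FUS3 held 3. The WUS stretch held 1 GAGAGA match, read as TCTCTC, and 1 AAACCCTA match, read as TAGGGTTT. The stretches before ANR1 and CUC2 held no match to any of these motifs. Among 27443 protein-coding genes with a full stretch of this length, 23.6% held GAGAGA, 5.21% held AAACCCTA, 2.92% held the CArG box and 7.09% held CACGTG. Among all 48 members, 16 stretches (33.3%) held GAGAGA and 4 (8.33%) held AAACCCTA, those of WUS, AGL15, TT16 and AGL72. Most members with a motif had no peak, as did 43 of all 48 members, so this is not read as a property of the motifs. Of the bound members, PI, WUS and FUS3 held GAGAGA, and ANR1 and CUC2 did not. Of the 459 genes bound in both replicates, 17.9% held GAGAGA, 2.18% held AAACCCTA, 2.61% held the CArG box and 55 genes held CACGTG, a larger share than among all genes. The last 2 motifs were each present in 1 member (2.08%), the CArG box at SHP2 and CACGTG at FLC. The 5 stretches are rich in A and T, with GC shares from 23.0% at WUS to 40.3% at ANR1, against a median of 31.3% over all genes.

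PI (AT5G20240), which specifies petals and stamens together with AP3, lies on the plus strand at chr5:6828904-6831515. In replicate 1 its peak spanned chr5:6826217-6829686, was 3470 bp wide and had a score of 242.24, rank 17 of 926. In replicate 2 the peak spanned chr5:6826229-6828394, was 2166 bp wide and had a score of 226.89, rank 14 of 430. Both peaks were therefore among the strongest 3.26% of their lists. They began within 12 bp of each other, but their ends differed by 1292 bp. The replicate 1 peak covered the whole 1000 bp upstream part and 783 bp of the PI gene body (30.0% of it), of which 255 bp were coding, 299 bp were other exon sequence and 229 bp were intron. The replicate 2 peak ended 510 bp before the PI start, covered 491 bp of the upstream part and met 0 bp of the gene body. The 300 bases printed for PI were fully under the replicate 1 peak and outside the replicate 2 peak.

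The PI peaks also covered a neighbour, and in replicate 2 the peak lay mainly over it. Of the replicate 1 peak 51.4% was inside the PI target region, and of the replicate 2 peak 22.7%. BCB (AT5G20230), which encodes a blue-copper-binding protein, lies upstream of PI on the same strand at chr5:6826365-6827748 and was covered over its whole 1384 bp in both replicates. BCB made up 39.9% of the replicate 1 peak and 63.9% of the replicate 2 peak, and it held the midpoint of the latter. The midpoint of the replicate 1 peak lay 203 bp past the end of BCB and 953 bp before the PI start, inside the long non-coding RNA gene AT5G03115. In replicate 2 the midpoint lay 1593 bp before the PI start. The start nearest to both midpoints was that of AT5G03115, at 219 bp and 859 bp. The end of BCB and the PI start are 1155 bp apart. The call at PI rested on the 1 kb upstream part alone in replicate 2, whereas in replicate 1 the peak also entered the PI body. The peak lists cannot divide a peak between BCB, AT5G03115 and PI.

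The downstream neighbour of PI was bound as well. DIN10 (AT5G20250), annotated as a raffinose synthase family gene, carried a separate peak of score 91.46 (rank 294) in replicate 1 and of score 154.41 (rank 41) in replicate 2. These peaks began 2.03 kb and 2.05 kb past the end of PI and covered 3157 bp and 3295 bp of the DIN10 body. The PI gene body between BCB and DIN10 was met by a peak only at its 5′ end and only in replicate 1. Over all members, 86 protein-coding genes that are not members directly flank one, and BCB and DIN10 were the only 2 of them bound in each replicate (2.33%). Of all protein-coding genes, 5.11% were bound in replicate 1, 2.28% in replicate 2 and 1.67% in both. The count is not read as a property of the flanking genes.

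**Figure D1:**
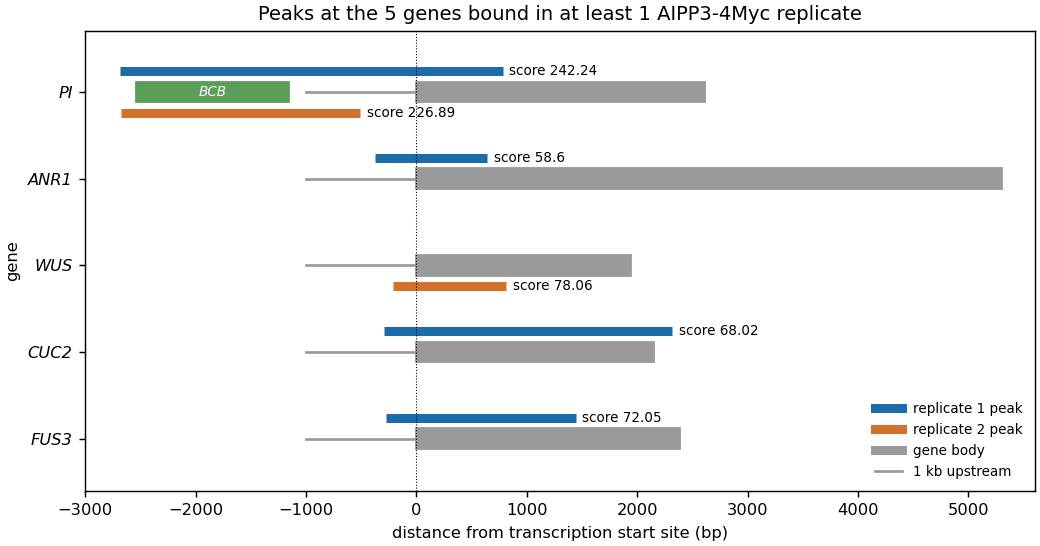
Peaks at the 5 genes bound in at least 1 AIPP3-4Myc replicate, drawn by distance from the transcription start site in bp, with the gene body as a grey bar, the 1 kb upstream as a thin line and BCB in green. At PI the replicate 2 peak ends 510 bp before the start, while the peaks at ANR1, WUS, CUC2 and FUS3 cross the start of their gene and appear in 1 replicate each.

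The other 4 bound genes had the opposite pattern. Each was called in 1 replicate only, and each peak crossed the start of the gene, had its midpoint in the gene's own body and met no other gene's target region. ANR1 (AT2G14210, annotated as AGL44), a MADS-box gene of the root response to nitrate, lies on the plus strand at chr2:6018558-6023863. Its replicate 1 peak, chr2:6018180-6019199, was 1020 bp wide with a score of 58.6, rank 704 of 926. It covered 378 bp upstream and 642 bp of the gene body (12.1%), and its midpoint lay 131 bp past the start. In replicate 2 the nearest peak to ANR1 was 429 kb away.

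WUS (AT2G17950), the homeodomain gene that keeps the stem cells of the shoot apical meristem, lies on the minus strand at chr2:7808871-7810811. Its replicate 2 peak, chr2:7809996-7811023, was 1028 bp wide with a score of 78.06, rank 195 of 430. It covered 212 bp upstream and 816 bp of the gene body (42.0%), of which 496 bp were coding. Both matches printed for WUS lie in the 212 bases next to the start, which were under the peak. In replicate 1, which had more peaks, the nearest peak to WUS was 50.8 kb away.

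CUC2 (AT5G53950), a NAC transcription factor gene that separates organs at their boundaries, lies on the minus strand at chr5:21901704-21903854. Its replicate 1 peak, chr5:21901537-21904147, was 2611 bp wide with a score of 68.02, rank 532 of 926. It covered the whole 2151 bp gene body, of which 1128 bp were coding, and 293 bp upstream. FUS3 (AT3G26790), a B3 transcription factor gene of seed maturation, lies on the minus strand at chr3:9853828-9856212. Its replicate 1 peak, chr3:9854768-9856491, was 1724 bp wide with a score of 72.05, rank 477 of 926, and covered 1445 bp of the body (60.6%) and 279 bp upstream. In replicate 2 the nearest peaks to CUC2 and FUS3 were 403 kb and 204 kb away.

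Scores at these 4 genes were in the middle or lower part of their lists. ANR1 ranked at 76.0%, CUC2 at 57.5% and FUS3 at 51.5% of the replicate 1 list, counted from the highest score, and WUS ranked at 45.3% of the replicate 2 list. Of the 228 replicate 1 peaks that scored from the level of ANR1 to that of FUS3, 45 (19.7%) overlapped a replicate 2 peak, against 313 of 926 (33.8%) in the whole list. Of the 94 replicate 2 peaks within 10 score units of WUS, 65 (69.1%) overlapped a replicate 1 peak, against 314 of 430 (73.0%) in the whole list. A call in replicate 1 alone was thus common at scores like those of ANR1, CUC2 and FUS3, whereas most replicate 2 peaks that scored like WUS did have a counterpart. None of the member peaks overlapped a Col-0 peak.

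The place of the midpoint was compared with all bound genes. Of the 459 protein-coding genes bound in both replicates, 298 (64.9%) held a peak midpoint in their own body in each replicate. Among genes bound in 1 replicate only, a midpoint in that replicate was enough, so the shares are not like measures. The shares were 59.2% (559 of 944) for replicate 1 only and 67.7% (113 of 167) for replicate 2 only. The members gave 0 of 1 in both replicates, 3 of 3 in replicate 1 only and 1 of 1 in replicate 2 only. When each peak was given instead to the gene with the nearest TSS of any biotype, replicate 1 gave 3 members (ANR1, FUS3 and CUC2; 6.25%, against 3.09% of all genes) and replicate 2 gave 1 member (WUS; 2.08%, against 1.42%). No member was called in both replicates by that rule, against 0.955% of all genes, or 262 genes. For no count of 0 was a test run.

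The motifs were also counted over the whole peaks, overlapping matches included. The FUS3 peak held 18 GAGAGA matches and the replicate 1 peak at PI held 9, against a median of 3 over all replicate 1 peaks. The replicate 2 peak at PI, which is shorter, held 1. The peaks at ANR1 and CUC2 held 5 each and that at WUS held 4. At least 1 GAGAGA match was present in 90.0% of replicate 1 peaks and 88.8% of replicate 2 peaks, so its presence did not set the members apart. The CUC2 peak held 4 AAACCCTA matches, and the peaks at FUS3, at WUS and, in replicate 1, at PI held 1 each. The ANR1 peak and the replicate 2 peak at PI held none. In replicates 1 and 2, 25.1% and 21.4% of all peaks held at least 1. No member peak held a CArG box, which was present in 10.3% of replicate 1 peaks and 9.07% of replicate 2 peaks. CACGTG was present in all 6 member peaks, with 2 matches at FUS3 and 1 in each of the others. At least 1 match was present in 46.2% and 38.4% of the peaks of replicates 1 and 2. The replicate 2 peak at PI lies within the replicate 1 peak, so both hold the same match. Widths were not adjusted for: the peaks at PI and CUC2 were wider than the medians of 1724 and 1592 bp, and those at ANR1 and WUS narrower. GC shares of the member peaks ran from 34.2% at PI in replicate 1 to 38.0% at CUC2, under the medians of 40.3% and 41.4% of the 2 lists.

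Floral repressors delay flowering until cold or long days have been perceived, and none of the 7 was bound. All genes gave 5.11% in replicate 1, 2.28% in replicate 2 and 1.67% in both. With 7 genes the absence of a call is not read as a property of the group. FLC (AT5G10140), the repressor that vernalization silences through Polycomb, lay 59.0 kb from the nearest peak in replicate 1 and 59.2 kb in replicate 2, where the nearest peaks overlap. MAF2, MAF3, MAF4 and MAF5 are FLC relatives in a tandem array. They lay 30.8, 25.8, 21.0 and 14.6 kb from 1 shared replicate 1 peak, and 127, 122, 117 and 111 kb from 1 shared replicate 2 peak, so these distances are not independent. MAF1 lay 116 kb and 206 kb away. SVP (AT2G22540), which acts with FLC, was the closest of the group at 8.74 kb in replicate 1 and 13.8 kb in replicate 2. No peak of either replicate lay within 10 kb of FLC or a MAF gene, and most genes at large had none either. Within that distance stood 20.2% of all genes in replicate 1 and 9.74% in replicate 2.

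The flowering activator SOC1, its relatives and AGL24 were likewise unbound, 7 genes in all, against 5.11% and 2.28% of all genes bound in replicates 1 and 2. SOC1 (AT2G45660) lay 8.24 kb from a replicate 1 peak and 50.8 kb from a replicate 2 peak. AGL24, which promotes inflorescence identity, lay 11.1 kb from a peak in both replicates. AGL19, AGL71 and AGL72 lay 38.5, 49.3 and 53.3 kb away in replicate 1, and the nearest peak of each overlapped its nearest replicate 2 peak. AGL14 lay 54.8 kb and 67.2 kb away, and AGL42 86.4 kb and 129 kb. The floral meristem identity genes AP1, CAL and FUL stood at 100, 86.7 and 69.9 kb in replicate 1 and at 100, 117 and 115 kb in replicate 2. None of these 10 genes lay within 5 kb of a peak, against 12.9% of all genes in replicate 1 and 6.1% in replicate 2. With so few genes, neither count is read as a property of these groups.

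Of the 7 floral organ identity genes, PI alone was bound. AP3 (AT3G54340), the class B partner with which the PI protein forms a dimer, lay 88.6 kb from a peak in replicate 1 and 111 kb in replicate 2. AG (AT4G18960), the class C gene of stamens and carpels, lay 9.71 kb away in replicate 1 and 110 kb in replicate 2. The class E genes SEP1, SEP2, SEP3 and SEP4, whose proteins join the others in complexes, lay from 40.7 kb (SEP2) to 56.0 kb (SEP3) away in replicate 1. In replicate 2 they lay from 41.3 kb (SEP2) to 830 kb (SEP4), the largest distance of any member. AP3 was thus called in neither replicate, while the replicate 2 call at PI rested on a peak outside the PI body. Of all genes, 1.67% were bound in both replicates, so this difference is not read as a property of the pair.

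The genes of fruit, ovule and seed coat, SHP1, SHP2, STK and TT16, were all unbound at 54.7, 78.4, 317 and 35.4 kb in replicate 1 and 190, 78.3, 443 and 380 kb in replicate 2. AGL6 and AGL13 lay 13.8 and 14.2 kb from a replicate 1 peak, and 56.4 and 13.7 kb from a replicate 2 peak. AGL15 and AGL18, which are expressed in embryos and repress flowering, lay 69.6 and 66.0 kb away in replicate 1 and 69.9 and 171 kb away in replicate 2. In the group listed as root MADS-box genes, ANR1 was bound in replicate 1. AGL12, AGL16 and AGL17 were not, at 12.1, 115 and 22.5 kb in replicate 1 and 170, 115 and 52.4 kb in replicate 2, nor was AGL21, at 20006 bp and 84236 bp. The 37 MADS-box members thus gave 2 bound genes in replicate 1, 1 in replicate 2 and 1 in both, all of them PI or ANR1. Beside the shares of all genes, 5.11%, 2.28% and 1.67%, these counts are not read as a property of the family.

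None of the 4 class I KNOX genes was bound. STM (AT1G62360), which maintains the shoot meristem, lay 49.7 kb from a peak in replicate 1 and 39.4 kb in replicate 2. KNAT1 (AT4G08150, also BP), which shapes the inflorescence stem, had the largest distance of any member in replicate 1, 426 kb, and lay 344 kb from a replicate 2 peak. KNAT2 lay 34.6 kb and 150 kb away and KNAT6 56.1 kb and 33.0 kb. Of the CUC genes, CUC1 lay 9.51 kb from a peak in both replicates and CUC3 lay 71.6 kb away in both, while CUC2 was bound in replicate 1. Of the embryo genes, LEC1 lay 3.24 kb and 11.7 kb away, LEC2 lay 32.6 kb and 32.8 kb away, and FUS3 was bound in replicate 1. The 11 members outside the MADS-box family thus gave 2 bound genes in replicate 1, 1 in replicate 2 and none in both. All genes gave 5.11%, 2.28% and 1.67%, and with so few members these counts are not read as a property of the groups.

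**Figure D2:**
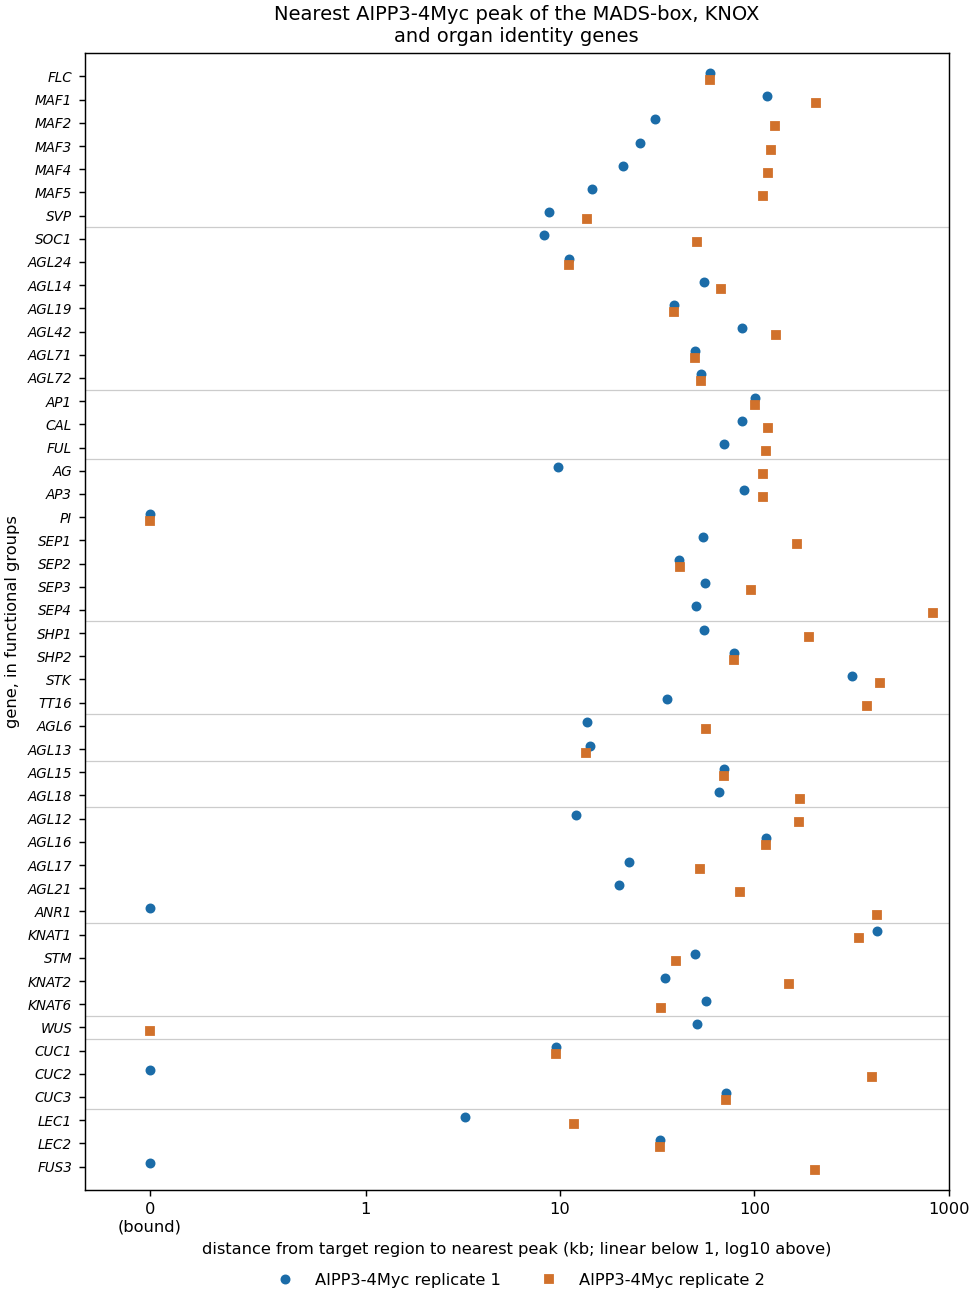
Distance in kb from the target region of each of the 48 genes to the nearest peak in AIPP3-4Myc replicate 1 (circles) and replicate 2 (squares), on an axis that is linear below 1 kb and log10 above, with lines between functional groups. PI is the only gene at 0 in both replicates, and ANR1, CUC2, FUS3 and WUS are at 0 in 1 replicate and at least 50.8 kb away in the other.

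At LEC1, CUC1 and AGL24, which were unbound, the nearby peaks had their midpoints in other genes. LEC1 (AT1G21970), which encodes an embryo regulator of the NF-Y family, was the only unbound member with a peak within 5 kb. This replicate 1 peak, chr1:7723097-7724339, lay 3.24 kb downstream of LEC1, scored 79.74 (rank 385) and had its midpoint in AT1G21950. The 2 cases that follow were chosen after their values were seen, since their peaks were high in both lists. The peak 9.51 kb from CUC1 had its midpoint in ERF4, an ethylene response factor gene, and ranked 34 in replicate 1 and 10 in replicate 2. The peak 11.1 kb from AGL24 had its midpoint in DIC2, a gene of a mitochondrial dicarboxylate carrier, and ranked 16 and 31. Strong peaks in the neighbourhood therefore did not reach CUC1 or AGL24. Such a midpoint was not found at every member, as the replicate 1 peak 12.1 kb from AGL12 had its midpoint in no annotated gene.

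Over the 48 genes the median distance to the nearest peak was 45.0 kb in replicate 1 and 98.0 kb in replicate 2. Over all protein-coding genes it was 39.4 kb and 88.4 kb. The middle range between quartiles was 14.1 to 66.9 kb for the members in replicate 1, against 13.7 to 86.3 kb for all genes, and 47.3 to 154 kb against 33.5 to 184 kb in replicate 2. Within 10 kb of a peak stood 18.8% of the members and 20.2% of all genes in replicate 1, and 6.25% and 9.74% in replicate 2. Within 100 kb stood 89.6% of the members and 79.5% of all genes in replicate 1, and 24 of the 48 members and 54.0% of all genes in replicate 2. The members thus lay no closer to the peaks than genes at large at either median. Replicate 2 has fewer peaks, and 36 of the 48 genes lay farther from a peak in it. For 15 of the 48 genes, PI included, the nearest peaks of both replicates overlapped. In Col-0 the nearest peak to any member on a chromosome with a peak was 228 kb away, at AGL71, and 7 members are on chromosome 4, which had no Col-0 peak.

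**Figure D3:**
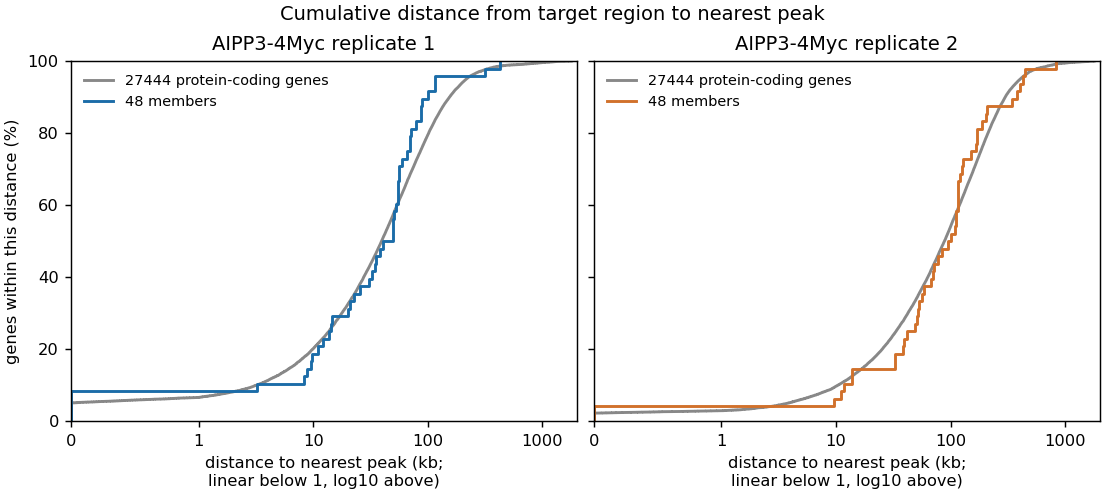
Cumulative share in percent of the 48 members (coloured) and of all 27444 protein-coding genes (grey) by distance in kb to the nearest peak, linear below 1 kb and log10 above, for each AIPP3-4Myc replicate. The member curves start at 8.33% and 4.17% at distance 0 and run close to the grey curves, with medians of 45.0 and 98.0 kb against 39.4 and 88.4 kb.

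The members have longer target regions than most genes, with a median of 4552 bp against 3078 bp. Length did not go with a higher bound share over all genes. With genes divided by length of the target region into 4 classes of like size, 4.98%, 6.63%, 5.03% and 3.82% of genes were bound in replicate 1 and 1.78%, 3.38%, 2.19% and 1.78% in replicate 2, from the shortest class to the longest. The longest class holds 27 of the 48 members. Among the 15412 protein-coding genes with a target region inside the members' range of 2827 to 7394 bp, 4.88% were bound in replicate 1, 2.3% in replicate 2 and 1.65% in both. Peaks covered 3.21% of the summed 216.9 kb of member target regions in replicate 1, against 2.01% for all genes, and 0.7% against 0.874% in replicate 2.

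Lists of related genes were counted beside the shares of all genes, 5.11% in replicate 1, 2.28% in replicate 2 and 1.67% in both. Of 83 other genes annotated as MADS-box, 4 were bound in replicate 1 and 2 in replicate 2, and those 2, AGL65 (AT1G18750) and AT2G41440, were bound in both. AGL65 encodes a MADS protein of pollen, and its peak scored 86.71 (rank 324) in replicate 1 and 109.82 (rank 93) in replicate 2. The peak at AT2G41440 scored 125.57 (rank 126) and 211.82 (rank 19). At both genes the peak met 0 bp of the gene body, and its midpoint lay in the upstream neighbour, AT1G18740 for AGL65 and ERD15, an early dehydration response gene, for AT2G41440. Every MADS-box gene bound in both replicates, which are PI, AGL65 and AT2G41440, thus had its replicate 2 peak outside its body. In replicate 2, 2.28% of all genes were bound by the target region and 1.83% by the gene body alone. With so few genes this is not read as a property of the family.

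Of 34 other regulators of meristems and organs, 3 were bound in replicate 1 and none in replicate 2. These were LAS, a gene of axillary meristems (score 70.18, rank 503), TSF, a relative of the florigen gene FT (68.76, rank 520), and TFL1, which keeps the inflorescence meristem indeterminate (51.84, rank 872). Each of these peaks had its midpoint in the gene's own body and covered 1308, 1328 and 1373 bp of it. They were named after their values were seen, as calls of 1 replicate on the gene itself like those at ANR1, CUC2 and FUS3. Not every call of 1 replicate lay on its gene. The peaks at the MADS-box genes AGL93 (115.91, rank 161) and AGL101 (95.37, rank 267), bound in replicate 1 only, met 0 bp of the gene body. None of 20 genes of Polycomb components and readers was bound in either replicate. At the shares of all genes about 1 gene of 20 or fewer would be bound, so this 0 is near the background. The median distances of these 20 genes were 32.3 and 68.4 kb in replicates 1 and 2. Their smallest distances were 5.12 and 0.149 kb, so in replicate 2 a peak lay just outside a target region.

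**Figure D4:**
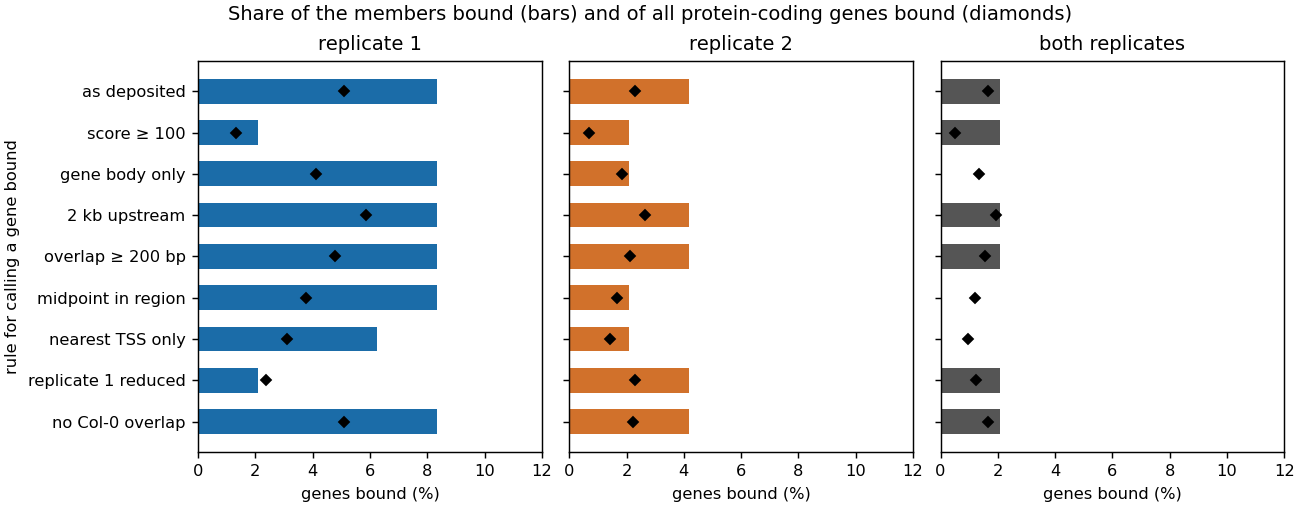
Share in percent of the 48 members bound (bars) and of all protein-coding genes bound (diamonds) under each rule for calling a gene bound, for AIPP3-4Myc replicate 1, replicate 2 and both. The bar for both replicates stands for PI alone (2.08%) and is empty when only the gene body, the peak midpoint or the nearest TSS is used.

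The call at PI depended on how a peak is assigned. It was lost in replicate 2, and so in both replicates together, when the gene body alone was used or when the midpoint had to lie in the target region, and it was lost in each replicate under the nearest TSS. With a score of at least 100, PI was the only member called in either replicate, and ANR1, WUS, CUC2 and FUS3 were not called.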

How the data were processed

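ChIP-seq peak lists were analysed for 2 AIPP3-4Myc libraries and 1 Col-0 library. As the study's methods describe, the authors mapped reads to TAIR10 with Bowtie2 (version 2.2.8) and called peaks with MACS (version 1.4) at default parameters. One peak list was deposited for each library. The deposited score of each peak is the negative log10 of the MACS p-value times 10, and a score of 50 corresponds to the default p-value of 1e-05. Control libraries, read numbers and treatment of duplicate reads are not given in the sources used here, so depth and precision are unknown. Gene models and sequence came from RefSeq TAIR10.1, whose nuclear chromosomes have TAIR10 coordinates, and every nuclear peak ended within its chromosome. Coordinates are 1-based. The target region followed the study, which assigned peaks with ChIPseeker, not used here.

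Overlaps, distances and motif matches were computed in Python 3.11.15 with pandas 2.3.3, and the target rule was tested on simulated peaks. Samples were grouped by their labels. Members, gene lists and rules were chosen with earlier results of these data known. Named genes were the bound members, unbound members with a peak within 5 kb, the extremes of distance, comparison genes bound in both replicates and neighbours sharing a peak, with exceptions stated. Where nothing says that the libraries came from separate cultures, their spread may be technical. Alternatives changed the score minimum, the target region, the overlap, the assignment, the number of replicate 1 peaks, the peaks shared with Col-0 and the replicates used.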

Additional observations from a re-analysis of the deposited data

How the results depend on the processing

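The count of members bound in both replicates was 1 (PI) as deposited. It stayed 1 with a score of at least 100, with 2 kb upstream, with an overlap of at least 200 bp, with replicate 1 reduced to its 430 highest peaks and without peaks overlapping Col-0. It was 0 for the gene body only, for the midpoint in the target region and for the nearest TSS only. The replicate 2 peak at PI ends before the gene, its midpoint lies 1593 bp before the PI start, and in both replicates the start of AT5G03115 is nearer to the midpoint. Leaving out 1 AIPP3-4Myc replicate gave 2 to 4 members, 2 without replicate 1 and 4 without replicate 2, because a single list then decides. In replicate 2 the count fell from 2 to 1 for the gene body only (WUS), the midpoint (WUS), the nearest TSS (WUS) and a score of at least 100 (PI). In replicate 1 it fell from 4 to 1 (PI) with a score of at least 100 and with the reduced list. With the nearest TSS the replicate 1 count fell to 3 (ANR1, FUS3 and CUC2). Over all genes these shares moved too, to 1.31% and 0.685% in replicates 1 and 2 with a score of at least 100. The median distance rose to 226 kb and 271 kb with a score of at least 100 and to 85.1 kb in the reduced replicate 1, since fewer peaks were left. It was not recomputed for the overlap, midpoint and nearest TSS settings. The Col-0 count was 0 in every setting in which it was computed. The order of members and all genes turned in 4 settings. The share bound in both replicates went from 2.08% of members against 1.67% of all genes to 0 members against 1.33% (gene body only), 1.2% (midpoint) and 0.955% (nearest TSS), and the share in the reduced replicate 1 was 2.08% of members against 2.36%. No paired analysis was possible because only the AIPP3-4Myc group has numbered replicates and no test was made. The unknown depth limits every statement on an unbound gene.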
